A study of Mus musculus with 6 samples.

Results

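The axon guidance ligands and receptors are the secreted and membrane-bound cues that steer growing nerve fibres, together with the receptors that read them. They were chosen by gene symbol, as all ephrins, Eph receptors, semaphorins, neuropilins, plexins, Slits, Robo receptors, netrins and netrin receptors. Of 72 such genes listed, 70 had a probe set of their own on the arrays, among 19937 genes represented in all. These 70 comprised 36 ligand and 34 receptor genes in 10 families. Ephb2 was not analysed here, and Ntng2 was left out because its probe set carries several gene symbols.

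RNA was measured in whole islets of Langerhans from 16 week old mice on a C57BL/6 background (backcrossed, per the labels, from an outbred stock). Per the labels, all animals carried the Ins2-rtTA transgene, in which the insulin promoter directs the doxycycline-dependent activator rtTA to β cells, and all received doxycycline in food and water for 24 hours. Sox17-GOF (gain-of-function) animals carried tetO-Sox17 in addition, so that doxycycline switched on the transcription factor SOX17, whereas control animals carried Ins2-rtTA without it. For other experiments with this model the study describes controls with tetO-Sox17 alone; had that been so here, rtTA as well as SOX17 would differ between the groups. Each group had 3 arrays, described as biological replicates, and the contrast asks what a 24 hour pulse of SOX17 in β cells did to the RNA of the islet. The labels do not say whether an islet preparation came from 1 animal or from several. Isolated islets also hold other endocrine cells, vessels, stromal cells and remnants of exocrine tissue, so a value is a level of the whole preparation. In such bulk samples, fewer cells of a type and less RNA per cell cannot be told apart.

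Guidance cues work in matched sets. Ephrins are anchored to the cell surface and activate Eph receptor tyrosine kinases on the neighbouring cell, while the ephrin itself can signal backwards into its own cell. Class 3 semaphorins are secreted and act mostly through a neuropilin, which binds the ligand, and a plexin, which signals; Sema3e is the exception that binds plexin D1 directly. Most other semaphorins span the membrane and bind plexins. Slits bind Robo receptors, and netrins attract through DCC or repel through UNC5 receptors. Outside the nervous system the same molecules pattern blood vessels and epithelia. In the islet, ephrin-A and EphA contacts between β cells are known to tune insulin secretion, and Robo receptors are needed for normal islet architecture.

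Sox17 itself was higher on all Sox17-GOF arrays (6.35, 6.22 and 6.36) than on all control arrays (5.50, 5.72 and 5.71), a log2 difference of 0.67 ± 0.09 (SE) with an adjusted p of 0.00876. An exact two-sided permutation test over the arrays gave p = 0.10, the smallest that 3 arrays against 3 allow. Array medians lay between 6.31 and 6.41, and arrays of one group correlated at 0.984 or above. Along the second principal component, which held 21.5% of the variance, Sox17-GOF arrays 3 and 1 stood apart on opposite sides, at 38.4 and -31.4, with the other 4 arrays between -10.0 and 7.1. Hormone markers of the labelled tissue were bright. Ins2 gave 13.02 to 13.12 and Iapp 13.34 to 13.52 across the 6 arrays. The acinar enzyme gene Prss2 was about as bright, at 12.48 to 13.33, so these levels do not show how pure the islets were. The mean over 8 β cell markers ran from 10.87 to 10.90 on control arrays and from 10.37 to 10.51 on Sox17-GOF arrays, and 4 of the 8, Ucn3, Slc2a2, G6pc2 and Pdx1, fell.

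Of the 70 genes, 8 were higher in Sox17-GOF islets, 1 was lower and 61 did not pass. Those that rose were the ligands Sema3e, Sema3c and Sema4d and the receptors Plxnd1, Nrp1, Robo1, Dcc and Epha5; Sema6d, a ligand, fell. Sema3e rose 3.85-fold and Sema3c 3.41-fold, and the other 6 that rose changed between 1.38-fold (Sema4d) and 1.74-fold (Robo1). Levels are the deposited log2 array values, a log2 difference of 1 is a 2-fold change, and a gene passed when limma's moderated test over all named probe sets gave a Benjamini-Hochberg adjusted p under 0.05. The 9 genes that passed were 12.9% of the 70, against 5.21% of all genes represented; in the upward direction the shares were 11.4% and 2.77%, and in the downward direction 1.43% and 2.44%. The median difference was 0.03 over the 70 genes and -0.01 over all genes, and 43 of the 70 differences were positive (61.4%) against 9387 of 19937 (47.1%). Every Sox17-GOF array lay on one side of every control array for 18 of the 70 genes (25.7%), which is near the 25.5% found over all genes. By direction, the Sox17-GOF arrays were all above the control arrays for 13 of the 70 genes (18.6%, against 11.3% of all genes) and all below them for 5 (7.14%, against 14.2%). These shares describe the 70 genes and were not tested.

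By role, 3 of 36 ligands rose and 1 fell, and 5 of 34 receptors rose and 0 fell. For 38 of the 61 genes that did not pass (62.3%), the 95% interval of the difference lay within 1.3-fold either way, and for 60 of them within 2-fold. For most of the set the arrays were thus precise enough to bound a change at less than a doubling.

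**Figure D1:**
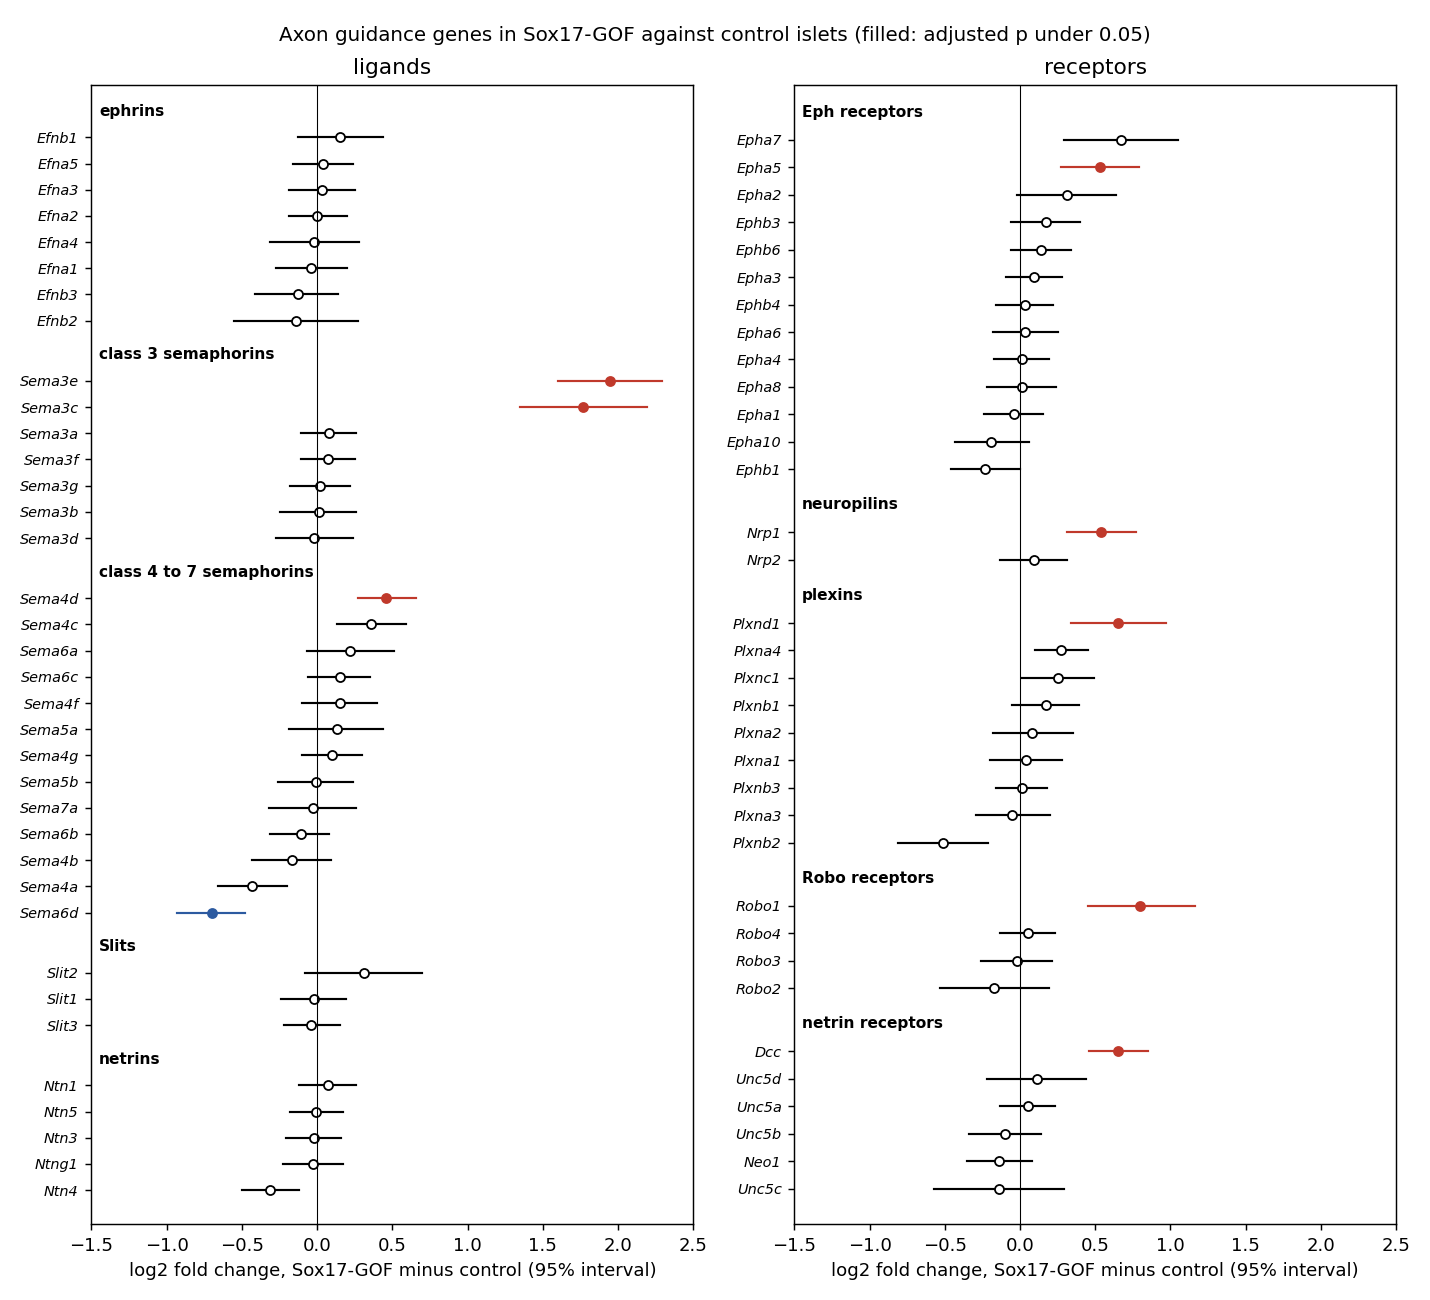
Log2 difference (Sox17-GOF minus control, horizontal axis) of each of the 70 genes, grouped by family, with its 95% interval from the limma fit over 3 arrays a group. Filled points passed the adjusted threshold of 0.05; 8 lie to the right of zero and 1, Sema6d, to the left.

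Known binding links Sema3e to Plxnd1, and Sema3c to Plxnd1 and Nrp1, and all 4 genes rose. For this reason the sequences just upstream of Sema3e, Sema3c, Plxnd1 and Nrp1 are shown first. Each is the 250 bases before the annotated transcription start in RefSeq (mouse GRCm38.p6), read 5′ to 3′ on the gene's own strand. Capitals mark the letters ACAAT or their complement ATTGT, the core that SOX proteins read. The windows are chr5:14025026-14025275 (plus strand) for Sema3e, chr5:17574566-17574815 (plus strand) for Sema3c, chr6:115995006-115995255 (minus strand) for Plxnd1 and chr8:128358823-128359072 (plus strand) for Nrp1.
Sema3e: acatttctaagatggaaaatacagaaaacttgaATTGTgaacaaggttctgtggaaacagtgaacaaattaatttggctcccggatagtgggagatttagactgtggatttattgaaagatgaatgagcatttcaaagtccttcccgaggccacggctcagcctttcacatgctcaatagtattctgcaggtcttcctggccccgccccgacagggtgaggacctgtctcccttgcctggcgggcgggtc
Sema3c: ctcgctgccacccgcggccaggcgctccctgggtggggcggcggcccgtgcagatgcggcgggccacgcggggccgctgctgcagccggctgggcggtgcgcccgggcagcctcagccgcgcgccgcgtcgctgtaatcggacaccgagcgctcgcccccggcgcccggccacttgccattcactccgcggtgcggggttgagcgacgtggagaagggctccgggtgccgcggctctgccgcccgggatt
Plxnd1: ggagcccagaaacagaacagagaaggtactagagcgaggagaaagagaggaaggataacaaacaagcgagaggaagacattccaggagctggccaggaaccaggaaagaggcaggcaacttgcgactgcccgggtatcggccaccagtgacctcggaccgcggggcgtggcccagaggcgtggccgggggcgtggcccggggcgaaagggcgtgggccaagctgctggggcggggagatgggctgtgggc
Nrp1: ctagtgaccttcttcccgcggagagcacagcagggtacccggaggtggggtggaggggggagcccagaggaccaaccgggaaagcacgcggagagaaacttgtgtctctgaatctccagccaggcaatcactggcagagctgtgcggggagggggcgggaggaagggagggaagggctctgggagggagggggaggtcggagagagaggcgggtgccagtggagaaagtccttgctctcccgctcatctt
The Sema3e window held 1 such core, 217 bases before the start, and the other 3 windows held none. The Sema3c window is dense in C and G, with 42 CpG dinucleotides in the 300 bases that also take in the first bases of the transcript, against 11 for Sema3e. Over windows of that length, either form of the core was present in 31% of all 32851 RefSeq promoters, in 19.7% of the 76 promoters matched to 60 of the 70 genes, and in 2 of the 11 promoters matched to 8 of the 9 genes that passed (18.2%; Dcc was not matched). A match describes letters in the window and not a bound site.

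Among the secreted class 3 semaphorins, 2 of 7 rose and the other 5 did not pass. Sema3e, the ligand of plexin D1 known for repelling growing vessels and axons, gave 6.63, 6.31 and 6.18 on the control arrays and 8.58, 8.21 and 8.18 on the Sox17-GOF arrays. The groups were far apart, with the lowest Sox17-GOF array well above the highest control array. The log2 difference was 1.95 ± 0.15 (SE; 95% interval 1.60 to 2.29), a 3.85-fold increase with an adjusted p of 0.000891, the largest difference among the 70 genes. Sema3c, a semaphorin that acts through neuropilins and plexin D1 and is required for patterning of the cardiac outflow tract, gave 6.58, 6.91 and 6.88 in control and 8.74, 8.78 and 8.15 in Sox17-GOF islets. It rose by 1.77 ± 0.18 (3.41-fold, adjusted p = 0.00283), with Sox17-GOF array 3 the lowest of its group and still above every control array. Both calls held when any single array was left out, with adjusted p of at most 0.00907 for Sema3e and 0.0183 for Sema3c.

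The other secreted semaphorins moved little. Sema3a, the classical repellent that acts through Nrp1, differed by 0.08 (95% interval -0.11 to 0.26), and Sema3b, Sema3d, Sema3f and Sema3g lay between -0.02 and 0.07. The group means of Sema3d were both under 4.63, the 20th percentile of all values, so little can be read from its difference. Within each array, the Sema3e level minus the Sema3a level, centred on the control mean, ran from -0.29 to 0.25 in control and from 1.73 to 2.09 in Sox17-GOF islets. This pair, the 3 receptor pairs given further on, and Sema3c with the dim Sema3d (a shift of 1.79) were chosen after the values had been seen. Each sets a gene that passed beside a relative that did not, so the shift follows in part from the choice. An exact permutation test gave p = 0.10 for each of these 5 pairs, the smallest that 3 arrays against 3 allow. The differences are therefore given as a description.

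Sema3d, Sema3a, Sema3e and Sema3c lie in this order along one stretch of mouse chromosome 5, which RefSeq (GRCm38.p6) fills with 22 protein-coding genes. The arrays represented 8 of them, and 3 passed the test. Beside the rise of Sema3e and Sema3c, Pclo, the presynaptic scaffold protein piccolo and the gene next to Sema3e, fell by 0.90 on the log2 scale (SE 0.10, adjusted p = 0.00372). Cacna2d1, a calcium channel subunit, and Hgf, the hepatocyte growth factor, differed by 0.15 and 0.08 and did not pass. Neighbours along this stretch therefore rose, fell or stayed under the threshold.

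**Figure D2:**
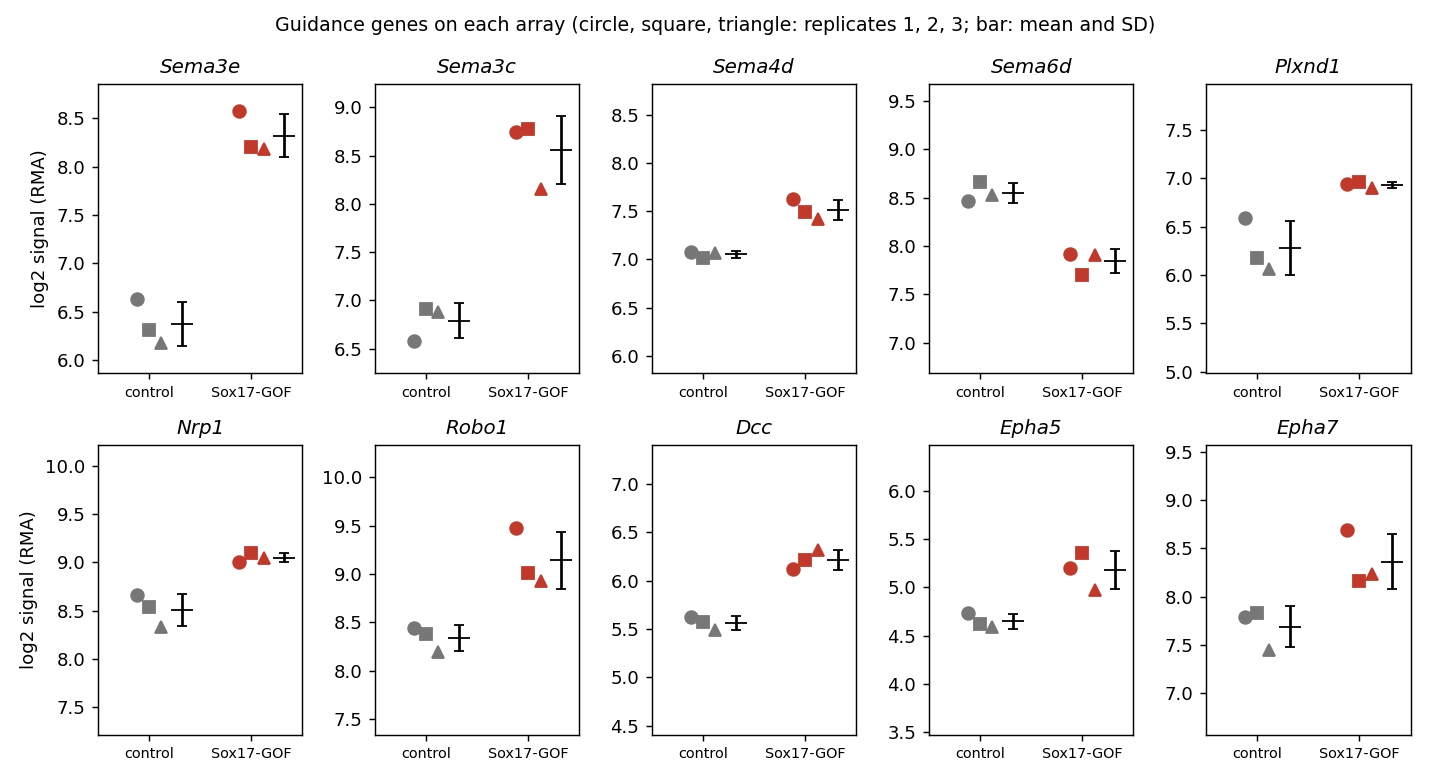
Deposited log2 level on each of the 3 control and 3 Sox17-GOF arrays for 10 genes, one panel a gene, every panel spanning 3 log2 units, with a bar for the mean and SD of each group. The groups do not overlap in any of the 10 panels, and Sema6d is the one in which Sox17-GOF lies below control.

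Of the 13 semaphorins of classes 4 to 7, most of them membrane-spanning, 1 rose, 1 fell and 11 did not pass. Sema6d, a transmembrane semaphorin that binds plexin A1, gave 8.46, 8.66 and 8.53 in control and 7.92, 7.70 and 7.91 in Sox17-GOF islets. It was the only one of the 70 genes to pass in the downward direction, with a log2 difference of -0.70 ± 0.10 (1.63-fold lower, adjusted p = 0.00859), and kept its call without any single array (adjusted p at most 0.0446). Its family members Sema6a, Sema6b and Sema6c lay between -0.11 and 0.22 and did not pass.

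Sema4d, a semaphorin of lymphocytes and other cells that signals through plexin B1, gave 7.08, 7.01 and 7.07 in control and 7.63, 7.49 and 7.42 in Sox17-GOF islets. The log2 difference was 0.46 ± 0.08 (1.38-fold higher, adjusted p = 0.0225). A second probe set for the gene did not show it, with 6.46, 6.49 and 6.81 against 6.52, 6.66 and 6.80, a difference of 0.07 (95% interval -0.21 to 0.36) whose groups overlapped. With the mean of both probe sets in place of the brighter one, the adjusted p was 0.11, and the call was also lost without any one of the 3 control arrays or Sox17-GOF array 2 (adjusted p up to 0.0996).

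Sema4a and Sema4c came close to the threshold in opposite directions and are named after their values were seen. Sema4a, known for roles in immune cells and the retina, gave 7.17, 6.97 and 7.05 in control and 6.79, 6.53 and 6.59 in Sox17-GOF islets, a log2 difference of -0.43 ± 0.10 with an adjusted p of 0.0533. Sema4c gave 5.76, 6.01 and 5.78 against 6.10, 6.28 and 6.26, a difference of 0.36 ± 0.10 (adjusted p = 0.0892). Neither gene had overlapping groups. Sema4a passed with array weights (adjusted p = 0.0411), without Sox17-GOF array 1 (0.038) and with several probe sets of one gene averaged (0.0499). Sema4c passed under no alternative. The rest of classes 4 to 7 lay between -0.17 and 0.22. Since both Sema4a and Sema4d are made by immune cells, leukocyte markers are given beside them. Their mean over 7 genes ran from 6.51 to 7.10 on control arrays and from 6.53 to 6.77 on Sox17-GOF arrays, and the median difference was -0.18. Of the 7, Cd79a, part of the B cell receptor, fell by 0.54 on the log2 scale (adjusted p = 0.0158), and Ptprc, the pan-leukocyte marker CD45, differed by -0.62 with overlapping groups (adjusted p = 0.238). The part of leukocytes in these results was not tested.

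The neuropilins and plexins, the receptors for these semaphorins, gave 2 higher and 0 lower among 11 genes. Nrp1, the neuropilin that also serves as a co-receptor for vascular endothelial growth factor, gave 8.66, 8.54 and 8.33 in control and 9.0, 9.10 and 9.05 in Sox17-GOF islets. It rose by 0.54 ± 0.10 (1.45-fold, adjusted p = 0.0252). Nrp2, its close relative with a role in lymphatic vessels, gave 6.88, 6.75 and 6.58 against 6.87, 6.83 and 6.79, with overlapping groups and a difference of 0.09 (95% interval -0.13 to 0.31). The within-array difference between the Nrp1 and Nrp2 levels, centred as before, ran from -0.02 to 0.02 on control arrays and from 0.36 to 0.50 on Sox17-GOF arrays.

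Plxnd1 encodes plexin D1, the receptor of Sema3e, which is prominent in developing vessels. It gave 6.59, 6.18 and 6.06 in control and 6.94, 6.96 and 6.90 in Sox17-GOF islets, so the Sox17-GOF arrays lay close together (SD 0.03, n = 3) and the control arrays were spread (SD 0.28, n = 3). The log2 difference was 0.65 ± 0.14 (1.57-fold higher, adjusted p = 0.0371). The calls of Nrp1 and Plxnd1 were both lost without control array 2, control array 3 or any one of the Sox17-GOF arrays, with adjusted p up to 0.0917 for Nrp1 and 0.141 for Plxnd1, while the differences stayed positive.

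None of the other 8 plexins passed. Plxnb2, a plexin of epithelial and neural progenitor cells, gave 8.60, 8.51 and 8.48 in control and 8.29, 8.0 and 7.78 in Sox17-GOF islets, a difference of -0.51 ± 0.13 with an adjusted p of 0.0734. Plxna4, a co-receptor with neuropilins for class 3 semaphorins, gave 6.60, 6.44 and 6.50 against 6.79, 6.81 and 6.76, a difference of 0.27 ± 0.08 (adjusted p = 0.0949). Both had groups that did not overlap, in opposite directions, and both are named after their values were seen. Plxnb2 passed with array weights (adjusted p = 0.0449) and without Sox17-GOF array 1 (0.023), and Plxna4 passed under no alternative. Plxna1 and Plxnb1, the partners of Sema6d and Sema4d, differed by 0.04 (95% interval -0.20 to 0.28) and 0.17 (-0.05 to 0.39).

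Nrp1, Plxnd1 and Sema3 ligands are also expressed by vascular and stromal cells, so the levels of those cells' markers are given beside them. The mean over 8 endothelial markers ran from 7.91 to 8.0 on control arrays and from 7.82 to 7.96 on Sox17-GOF arrays, with overlapping groups. Of the 8, Kdr, the main receptor for vascular endothelial growth factor, fell by 0.68 on the log2 scale (adjusted p = 0.016). The other 7 did not pass, among them Pecam1 at 0.37 (adjusted p = 0.11), Cdh5 at 0.27, Emcn at -0.50 (adjusted p = 0.0622) and Tie1 at -0.17 (adjusted p = 0.297). Kdr, Emcn and Tie1 lay below every control array on all 3 Sox17-GOF arrays, and Pecam1 lay above them. The Kdr call was lost without control array 1, control array 3 or Sox17-GOF array 2 (adjusted p up to 0.0599). The mean over 8 pericyte, stellate and fibroblast markers was 6.60 to 6.99 in control and 6.96, 7.40 and 7.48 on Sox17-GOF arrays 1, 2 and 3, and none of the 8 passed. Of these 8, 7 had positive differences, and 4 were above every control array on all 3 Sox17-GOF arrays: Rgs5 (0.35, adjusted p = 0.0833), Acta2 (0.68, adjusted p = 0.0897), Col1a2 (0.21, adjusted p = 0.238) and Lum (1.17, adjusted p = 0.106), the last of which was dim in control islets. Dcn, another fibroblast marker, was the most spread of the 8 in control islets, at 8.24, 9.09 and 6.31. Over all genes, 11.3% lay above every control array on all 3 Sox17-GOF arrays. The stromal list means overlapped between groups, with 6.99 on control array 1 and 6.96 on Sox17-GOF array 1. The duct list, over 4 markers, was 7.06 to 7.16 in control and up to 7.91 on Sox17-GOF array 3. In that list, Krt19 gave 6.53, 6.30 and 6.16 in control and 6.74, 7.07 and 9.13 in Sox17-GOF islets (1.32, adjusted p = 0.253). Krt7 lay below every control array on all 3 Sox17-GOF arrays (-0.34, adjusted p = 0.0849), and Sox9 and Cftr overlapped between groups. The acinar list ranged from 10.88 to 11.98 in Sox17-GOF and from 11.47 to 11.76 in control islets. None of the duct or acinar markers passed. The part of any of these lists in the results was not tested.

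**Figure D3:**
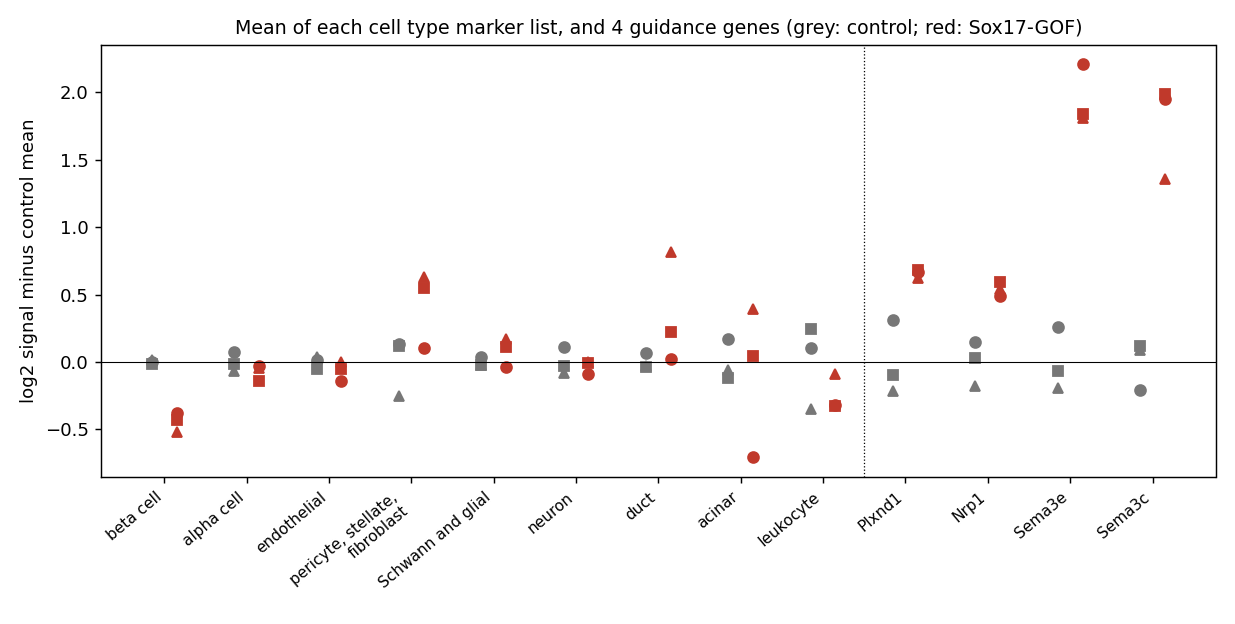
Mean log2 level of each list of cell type markers on every array minus its mean over the control arrays (vertical axis), with Plxnd1, Nrp1, Sema3e and Sema3c beside them on the same scale; grey points are control and red points Sox17-GOF arrays. The mean of the endothelial list overlaps between groups, with single markers moving both ways. The β cell list is lower on all 3 Sox17-GOF arrays and the 4 guidance genes are higher on all 3.

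The Slits, secreted ligands of the Robo receptors, gave no call among 3 genes. Slit2 had the largest difference, with 5.41, 4.98 and 4.93 in control and 5.22, 5.32 and 5.70 in Sox17-GOF islets, but its groups overlapped (0.31 ± 0.17, adjusted p = 0.375). Slit1 and Slit3 differed by -0.02 and -0.04. Among the 4 Robo receptors, 1 rose. Robo1 gave 8.44, 8.38 and 8.19 in control and 9.48, 9.01 and 8.93 in Sox17-GOF islets, a difference of 0.80 ± 0.15 (1.74-fold higher, adjusted p = 0.0283). The increase was greatest on Sox17-GOF array 1. The call was lost without any one of the 3 control arrays or Sox17-GOF array 2 (adjusted p up to 0.0995), and over all 6 such fits the difference ranged from 0.63 to 0.91.

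Robo2, which acts beside Robo1 in islet architecture, gave 10.22, 10.43 and 9.90 in control and 10.20, 9.82 and 10.02 in Sox17-GOF islets. Its groups overlapped, and the difference was -0.17 (95% interval -0.53 to 0.19). Within each array, the Robo1 level minus the Robo2 level, centred on the control mean, was 0.06, -0.20 and 0.13 in control and 1.13, 1.03 and 0.75 in Sox17-GOF islets, a shift of 0.97, or 1.96-fold, between the paralogs. Robo3, the divergent member of the family, and Robo4, the endothelial one, differed by -0.02 and 0.05.

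Of the netrin receptors, 1 of 6 rose. Dcc, the receptor through which netrin-1 attracts axons, gave 5.63, 5.57 and 5.49 in control and 6.12, 6.21 and 6.32 in Sox17-GOF islets. The replicates were tight and the groups far apart, with a difference of 0.65 ± 0.08 (1.57-fold higher, adjusted p = 0.00658) that held without any single array (adjusted p at most 0.0393). Neo1, the Dcc paralog neogenin, gave 10.30, 10.18 and 10.07 against 10.15, 9.94 and 10.04, with overlapping groups and a difference of -0.14 (95% interval -0.35 to 0.08). The Dcc level minus the Neo1 level, centred as above, ran from -0.05 to 0.05 on control arrays and from 0.59 to 0.89 on Sox17-GOF arrays. The 4 repulsive UNC5 receptors lay between -0.14 and 0.11 and did not pass.

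None of the 5 netrins passed. Ntn1, the ligand of Dcc, differed by 0.07 (95% interval -0.12 to 0.26). Ntn4, a laminin-related netrin of basement membranes, had the largest difference of the family, with 6.93, 7.05 and 7.13 in control and 6.76, 6.65 and 6.76 in Sox17-GOF islets. The groups were apart, but the difference of -0.31 ± 0.08 had an adjusted p of 0.0859.

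Among the 13 Eph receptors 1 rose, and none of the 8 ephrins passed. Epha5, an EphA receptor known in β cells as a partner of ephrin-A5, gave 4.73, 4.62 and 4.59 in control and 5.20, 5.36 and 4.97 in Sox17-GOF islets. Its control mean of 4.65 lay beside 4.63, the level under which the lowest 20% of all values fell, so it was barely above the dimmest signals in control islets. The difference was 0.53 ± 0.11 (1.44-fold higher, adjusted p = 0.0386). The call was lost without any one of the 3 control arrays, without Sox17-GOF array 1 or 2 (adjusted p up to 0.138), and after each array was centred on its median (adjusted p = 0.0574).

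Epha7, a further EphA receptor that binds ephrin-A5, gave 7.79, 7.83 and 7.45 in control and 8.69, 8.16 and 8.24 in Sox17-GOF islets. The groups did not overlap, and its difference of 0.67 ± 0.16 (95% interval 0.29 to 1.05) was the largest among genes that missed the threshold, with an adjusted p of 0.0622. With quantile normalization of the arrays it passed (adjusted p = 0.0373). It did not pass with any single array left out (adjusted p from 0.0832 to 0.165). The remaining Eph receptors lay between -0.23 (Ephb1) and 0.31 (Epha2), and Epha3 and Epha6 were dim in both groups. EphA receptors had a median difference of 0.03 over 9 genes and EphB receptors of 0.09 over 4.

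The ephrins formed the quietest family, with differences from -0.14 to 0.15 and no gene whose groups were apart. Efna5, the ligand of Epha5 and Epha7, differed by 0.04 (95% interval -0.16 to 0.24), and Efnb1, an ephrin-B ligand with the largest difference of the family, by 0.15 (-0.13 to 0.44). Both intervals exclude a doubling or halving of the level.

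The known pairs looked at were a selected list that does not hold every partner of these genes. Read as ligand and receptor together, 3 pairs of this list had both genes higher in Sox17-GOF islets. They were Sema3e with Plxnd1, Sema3c with Nrp1 and Sema3c with Plxnd1. These pairs share Sema3c and Plxnd1, and the Nrp1 and Plxnd1 calls were lost without most single arrays. In most of the other known pairs looked at, neither gene passed. Sema3c with Nrp2, its other neuropilin, had a higher ligand and a receptor that did not pass. In the Slit and Robo1, netrin-1 and Dcc, ephrin-A5 and Epha5, and Sema3a and Nrp1 pairs, the receptor rose and no ligand passed. In Sema4d with Plxnb1, the ligand rose and the receptor did not pass. In Sema6d with Plxna1, the ligand fell and the receptor did not pass. Whether ligand and receptor differed from each other in their response was not tested, and whole-islet RNA does not show which cell made either.

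**Figure D4:**
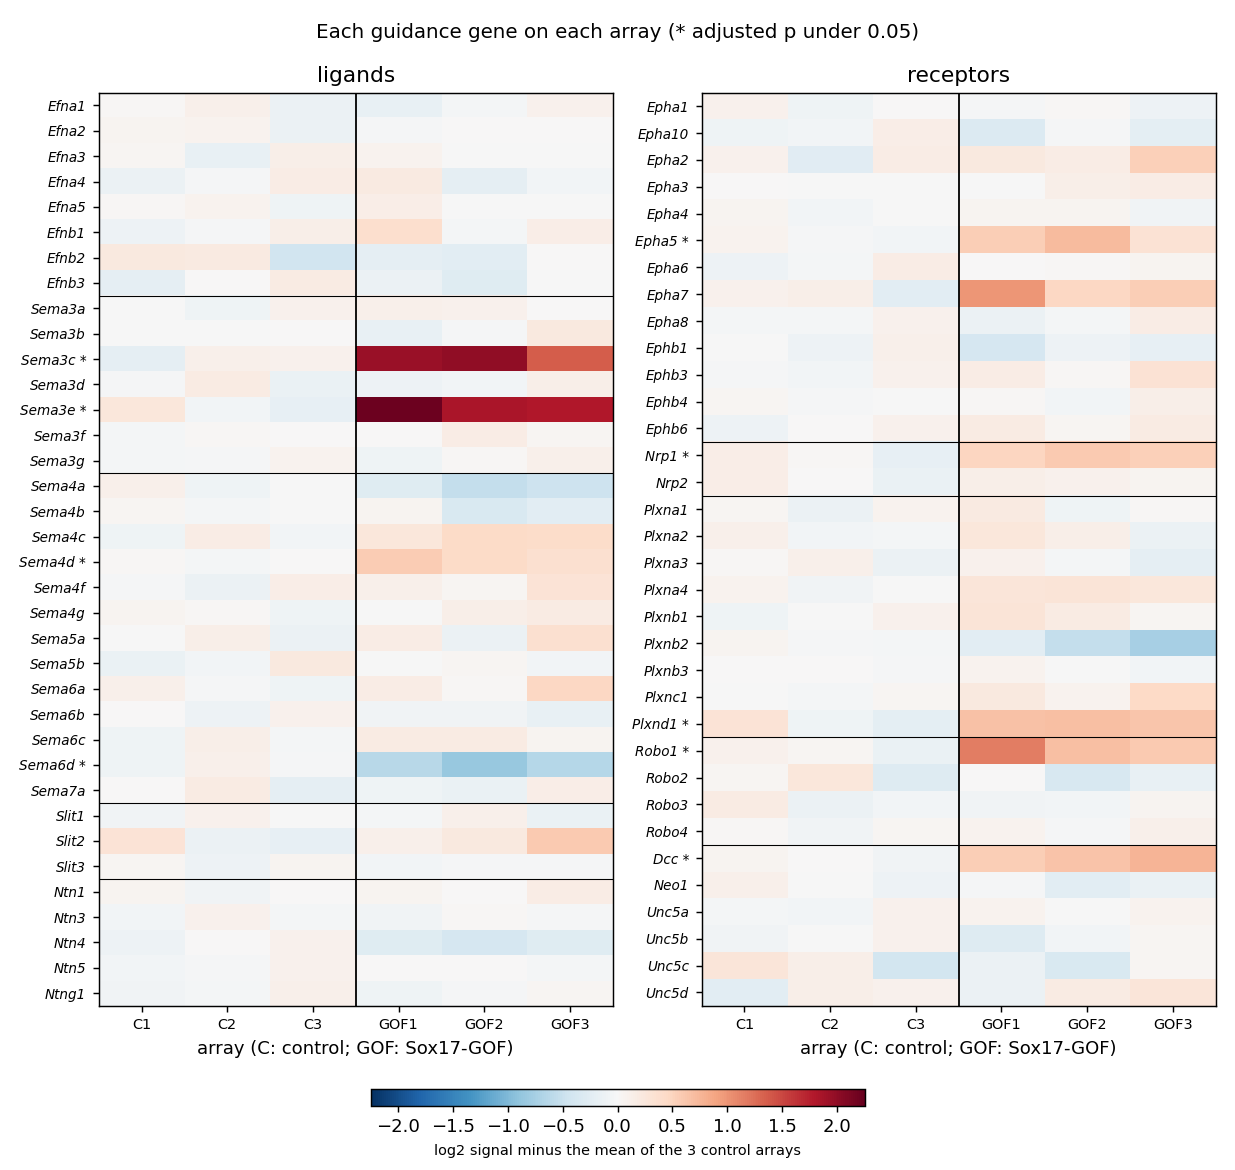
Log2 level on each array minus the mean of the control arrays for all 70 genes, ordered by family, with colour from blue (lower than control) to red (higher) and a star on genes that passed. Sema3e and Sema3c are the deepest red on all 3 Sox17-GOF arrays, and the ephrins are close to white throughout.

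Inside the cell, guidance receptors act through small GTPases, their regulators and cytoskeletal effectors. Of 49 such genes listed, 45 were represented: 3 rose, 1 fell and 41 did not pass, with a median difference of 0.09 against -0.01 over all genes. Over all genes represented, 2.77% rose and 2.44% fell. Srgap3, a Slit-Robo GTPase-activating protein, gave 6.36, 6.08 and 5.83 in control and 7.53, 8.37 and 7.52 in Sox17-GOF islets. It rose by 1.72 ± 0.24 (3.29-fold, adjusted p = 0.00944), the largest difference in this list, and Sox17-GOF array 2 stood above the other Sox17-GOF arrays. Without control array 2 its adjusted p was 0.0505. Its relative Srgap1 gave 6.88, 6.62 and 6.85 against 7.20, 7.09 and 7.35, with groups apart and an adjusted p of 0.0634. Nearer the threshold in this list, in both directions, were Rasa1 (0.33, adjusted p = 0.0505), Arhgef12 (-0.41, 0.051) and Rras (0.46, 0.0561). Their groups were also apart. Srgap1, Rasa1, Arhgef12 and Rras are named after their values were seen.

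Tiam1, an exchange factor that activates the GTPase RAC1, gave 5.84, 5.75 and 6.07 in control and 6.83, 6.72 and 6.65 in Sox17-GOF islets, an increase of 0.84 ± 0.10 (adjusted p = 0.00558) that held without any single array. Crmp1, a collapsin response mediator protein that relays semaphorin signals to microtubules, gave 6.68, 6.85 and 6.92 against 7.40, 7.35 and 7.35 (0.55 ± 0.09, adjusted p = 0.0143; 0.0619 without control array 2). Mical3, of the family of flavoprotein oxidases that act on actin downstream of plexins, was the 1 gene of the list to fall. It gave 8.24, 8.41 and 8.11 in control and 7.70, 7.51 and 7.72 in Sox17-GOF islets (-0.61 ± 0.10, adjusted p = 0.019), and its call was lost without control array 1, control array 2 or Sox17-GOF array 2 (adjusted p up to 0.0755). With the probe sets of the gene averaged, the difference was smaller, at -0.39 (adjusted p = 0.0425).

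A further list held 17 guidance cues and co-receptors of other families, of which 3 rose, 1 fell and 13 did not pass, with a median of 0.11. Beside this stand the 2.77% of all genes that rose and the 2.44% that fell. Neither list was tested against these shares. Chl1, an adhesion molecule of the L1 family that serves as a co-receptor in semaphorin and ephrin signalling, gave 5.93, 5.43 and 4.97 in control and 7.35, 7.01 and 6.58 in Sox17-GOF islets. Its replicates were the most spread of the genes named here from this list (SD 0.48 and 0.39, n = 3 each), and it rose by 1.54 ± 0.27 (2.9-fold, adjusted p = 0.0204). Adam10, the protease that sheds ephrins and cleaves other surface proteins, rose by 0.68 ± 0.11 (adjusted p = 0.0152). The chemokine Cxcl12 rose by 0.36 ± 0.08 (adjusted p = 0.0486), and Flrt1, a membrane protein of a family that binds UNC5 receptors, fell by 0.42 on the log2 scale (adjusted p = 0.0279). The Chl1 call was lost without control array 2 or 3 or Sox17-GOF array 1 or 2 (adjusted p up to 0.0867). The other 3 calls were lost without Sox17-GOF array 2 or any control array, and those of Cxcl12 and Flrt1 also without Sox17-GOF array 3 and array 1, respectively, with adjusted p up to 0.0659 for Adam10, 0.154 for Cxcl12 and 0.115 for Flrt1.

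Dcc, Robo1, Epha5 and Chl1 are well known from neurons and glia, whose fibres enter islets. The mean over 7 neuron markers ran from 7.86 to 8.05 on control arrays and from 7.85 to 7.94 on Sox17-GOF arrays, where Snap25, which endocrine cells also make, rose (0.47) and Th, the rate-limiting enzyme of catecholamine synthesis, fell by 0.94 on the log2 scale. That over 5 Schwann and glial markers ran from 5.98 to 6.04 on control arrays and from 5.96 to 6.17 on Sox17-GOF arrays, and none of the 5 passed. Both list means thus overlapped between groups, and their part in the results was not tested.

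Across the 9 genes that passed, 4 (Sema3e, Sema3c, Sema6d and Dcc) kept their calls whichever array was left out, and the other 5 lost them without 4 or 5 of the 6 arrays. Without Sox17-GOF array 3, 6 genes were higher and 1 lower, and without Sox17-GOF array 1, the other array that stood apart, 5 were higher and 3 lower. Without control array 1, 5 were higher and 1 lower, and without control array 2, control array 3 or Sox17-GOF array 2, in each case 3 were higher and 1 lower. The sign of the difference of each of the 9 stayed the same throughout.

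**Figure D5:**
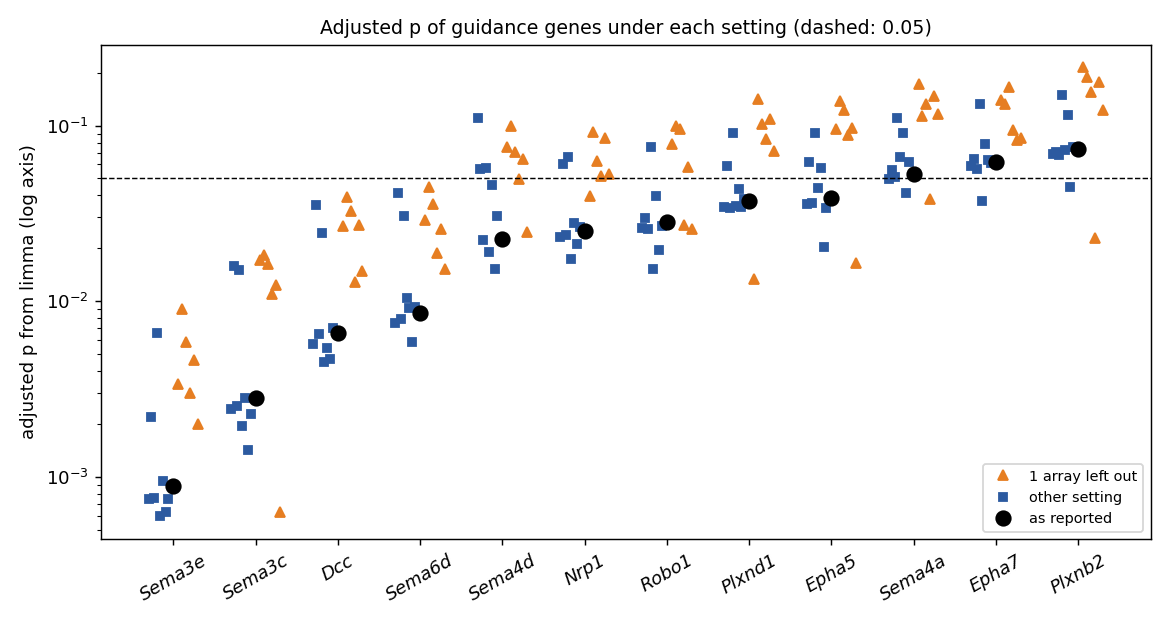
Adjusted p (log axis) for the 9 genes that passed and for Sema4a, Epha7 and Plxnb2, under the analysis as reported and under each alternative other than the methods' t-test, with a line at 0.05. Sema3e, Sema3c, Sema6d and Dcc stay on the passing side of the line in every setting shown, and the other 5 passing genes cross it in some.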

How the data were processed

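Islet RNA was amplified with NuGEN reagents and hybridised, 1 sample an array, to Affymetrix Mouse Gene 1.0 ST arrays (6 arrays). The deposited values are log2 expression per probe set, RMA-normalized by the authors. GeneSpring is the program in their methods, Affymetrix Expression Console the one in the processing notes; which of them made the deposited table is not settled. Total signal per array is not given. Precision is limited by the 3 arrays a group.

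Of 34760 probe sets, 22961 carry a gene symbol in the platform annotation (21640 with 1 symbol, 1321 with several) and 11799 carry none. Groups followed the sample titles. All named probe sets were fitted with limma 3.58.1 in R 4.3.3 (lmFit, eBayes) and adjusted by Benjamini-Hochberg at 0.05. Each gene was represented by its brightest single-symbol probe set. The fit was tested on simulated data. Genes named are those that passed, Epha5, Epha7 and Sema3e, the largest difference of each family, partners of genes that passed, and up to 4 pathway genes a list; others are marked as named after their values were seen. The genes and lists were chosen with earlier results of these data known. Alternatives changed the variance prior (an intensity trend), weighted the arrays, centred or quantile-normalized them, tested all probe sets, dropped dim ones, averaged several probe sets of one gene, used the replicate number as a blocking factor, applied the methods' t-test, or omitted 1 array at a time.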

Additional observations from a re-analysis of the deposited data

How the results depend on the processing

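Of the 70 genes, 8 were higher as reported. This became 3 when all probe sets, named or not, were tested, 4 with the replicate number as a block, 0 with the methods' t-test after Benjamini-Hochberg adjustment, and 3 to 6 when each array was left out in turn. The lower count of 1 became 3 with array weights, 2 with several probe sets of one gene averaged, 3 at the methods' own thresholds (1.3-fold and an unadjusted p under 0.05), 0 with the adjusted t-test, and 1 to 3 with an array left out. Over all named probe sets, 1133 were called, against 558 with all probe sets tested, 720 with the block, 71 with the adjusted t-test and 385 to 1020 with an array left out. Of the pathway genes, 6 were higher and 2 lower; the higher count was 0 with the adjusted t-test and 1 to 5 with an array left out, and the lower count was 0 with all probe sets, 0 with the block, 0 with the adjusted t-test and 0 to 2 with an array left out. At the methods' unadjusted thresholds 12 of the 70 genes were called, beside 1623 of all 22961 named probe sets. All 9 genes reported here were among the 12. The same 6 arrays were used at a looser cut, so this is no independent check of the 9.

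Samples with the same replicate number did not deviate together (correlations 0.05, -0.02 and -0.04), so the number is not taken as a pairing; with it as a block 5 of the 9 calls remained. Differences near zero changed sign: Slit1 was 0.00 with array weights and -0.09 to 0.04 with an array left out, Plxna1 -0.04 to 0.11, Efna5 -0.01 to 0.08 and Slit3 -0.09 to 0.00. The median of all genes was -0.011, and lay at -0.01 after median centring and 0.007 after quantile normalization. The cause of the lost calls was not tested. Epha3, Epha6 and Sema3d were too dim in both groups for a small difference to be read.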
